A study of Bos taurus with 16 samples.

Results

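A CpG reads the same on both DNA strands, so each one holds a cytosine on the forward strand and a cytosine on the reverse strand, at adjacent positions. In the endometrial RRBS libraries of postpartum dairy cows, 7862 autosomal CpGs had a methylation level for both of these cytosines, which took up 15724 of the 199395 cytosine positions measured. They were chosen as pairs of positions that lie next to each other on the same chromosome, each position being used once. Among 9469 such pairs in all, 969 on chromosome X, 2 on other sequences and 636 in 3 CpG islands were left out, which lie on chromosomes 27, 18 and 2 and hold many positions each. The table names no strand, so the lower position of a pair was taken as the forward-strand cytosine, and the bases themselves were not read from a genome here.

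Multiparous Holstein cows received a control diet (CON) or rumen-protected methionine (MET) from day 12 postpartum and were inseminated between days 50 and 64. A cytobrush sample of the endometrium followed 4 to 8 h after insemination, and samples were allocated later by outcome, pregnancy (P) or no pregnancy (noP). This gave the groups CON_P, CON_noP, MET_P and MET_noP with 4 libraries each, named below by the library numbers of the table. All cows were sampled at oestrus, and pregnancy was not yet established at sampling. DNA was isolated from more samples than there are libraries, and the sources used here do not say how many animals went into a library, so the spread between libraries may be smaller than that between animals. A brush takes several cell types at once, and in such a mixture a change in their shares cannot be told apart from a change of methylation within a cell type.

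Methylation of a CpG is copied at cell division. The new strand is unmethylated at first, UHRF1 binds this hemimethylated state, and DNMT1 methylates the cytosine of the new strand, while DNMT3A and DNMT3B add methylation to unmethylated CpGs. As a rule both cytosines of a CpG therefore carry the same state in a cell, and the methyl group comes from S-adenosylmethionine, which is made from methionine. A sequencing read reports only the strand from which it was made, so the levels of both cytosines were counted from different reads of a library, whereas neighbouring CpGs on one strand can be counted from the same reads. The read numbers are not part of the table, so the precision of a single percentage is unknown. Depth was unequal between the groups. In the paper, raw reads per replicate and CpG calls were most numerous in MET_P and fewest in CON_P, while bases left after trimming were most in MET_noP. Its part in the comparisons between groups was not tested.

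The CpGs measured on both strands were found on all 29 autosomes, from 78 on chromosome 28 to 483 on chromosome 18. A gene was annotated at 68.7% of them, compared with 64.6% of the 171725 autosomal positions outside the islands that had no adjacent position, and 1329 genes held at least 1. They lay close together, and 66.9% had another of their kind within 10 bp. Joining those at most 100 bp apart gave 2536 clusters, of which 594 held 5 or more and the largest held 24. For 63 of the 7862 CpGs the run of adjacent positions was odd in length, so their pairing was not unique.

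Most of these CpGs were methylated. Averaged over both strands and all 16 libraries, 3152 lay above 90%, 812 between 80% and 90%, 812 between 60% and 80%, 741 between 40% and 60%, 1412 between 20% and 40%, and 933 below 20%. The table holds no value of 0, since positions at 0 were discarded when it was made, and therefore fully unmethylated CpGs are missing. Mean methylation per library was 66.1% ± 1.26 (SD, n = 16), with a lowest value of 63.6% and a highest of 67.9%. It was higher than that of the single positions in 16 of 16 libraries, by 1.25 percentage points on average (permutation of the sign over libraries, two-sided, p = 3.05e-05, the smallest it can give). The groups were not found to differ in this mean, which was 66.1% ± 1.47 for CON_P, 65.2% ± 1.23 for CON_noP, 66.6% ± 0.950 for MET_P and 66.7% ± 1.21 for MET_noP (SD, n = 4 each). The exact permutation p of the 4 comparisons between groups ran from 0.143 to 0.886, where the smallest possible is 0.0286, and the adjusted p from 0.686 to 0.886 over 8 comparisons.

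The strands of one CpG were close to each other in every library. The median absolute difference between them was 5.23 percentage points ± 0.646 (SD, n = 16), with a lowest value of 4.45 in a MET_P library and a highest of 6.90 in a CON_P library. Within 10 points of each other lay 74.0% ± 3.57 of the CpGs of a library, and 6.96% ± 2.06 were more than 20 points apart. Across the 7862 CpGs of a library, Pearson's r between the strands was 0.925 to 0.961, a description in which both values share the library and its depth. Neither strand was higher as a whole, the mean of forward minus reverse being -0.336 to 0.274 points per library. The difference between strands was largest at intermediate levels, with a median over libraries of 9.67 points for CpGs of 40% to 60% methylation, and smallest above 90% with 3.22 points.

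Whether strand partners were closer than neighbouring CpGs depended on the neighbours chosen and on the level. For 37269 pairs of single positions 2 to 10 bp apart, the median absolute difference was 5.12 points ± 0.549, lower than that of the strand partners by 0.117 points and in 11 of 16 libraries (permutation of the sign, two-sided, p = 0.048). At 2355 CpGs with another CpG measured on both strands 2 to 10 bp further on, the partners differed by 5.20 points ± 0.670 and the CpG from the next one by 4.90 ± 0.448, the partners being the more different in 13 of 16 libraries (p = 0.000244 by the same permutation). Restricted to mean levels of 10% to 90% the order turned against the single positions, with 7.84 points ± 0.881 for strand partners and 8.25 ± 0.439 for neighbours, the partners being the more different in 5 of 16 libraries (p = 0.036 by the same permutation). It did not turn against the next CpG measured on both strands, a comparison added after the data were seen, with 7.97 ± 0.949 for partners and 7.18 ± 0.514 for the next CpG, partners being the more different in 14 of 16 libraries (p = 0.000305 by the same permutation). Compared with neighbours 11 to 50 bp apart, which differed by 6.37 points ± 0.467, the partners were closer in all 16 libraries (p = 3.05e-05 by the same permutation). The groups were not found to differ in the closeness of the strands, with means of 5.64 ± 0.967 for CON_P, 5.34 ± 0.569 for CON_noP, 4.81 ± 0.512 for MET_P and 5.15 ± 0.277 for MET_noP (SD, n = 4 each), and adjusted exact permutation p of 0.686 in all 4 comparisons.

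**Figure D1:**
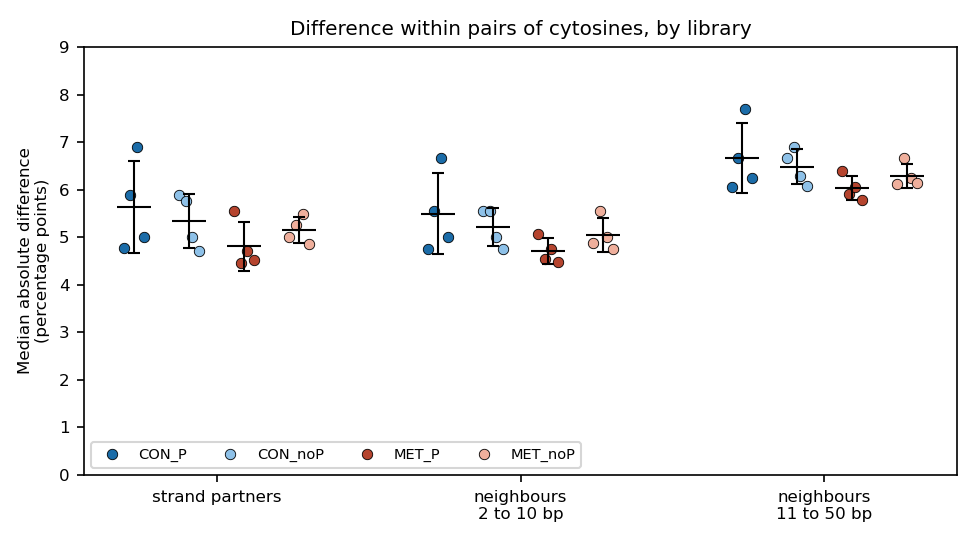
Median absolute difference in methylation (percentage points, vertical axis) between both strands of a CpG and between neighbouring CpGs at 2 distances, with 1 point per library, 4 libraries per group, and bars for the group mean and SD. Strand partners and neighbours at 2 to 10 bp sit at 5.23 and 5.12 points on average, and neighbours at 11 to 50 bp sit higher at 6.37 points.

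What differed between libraries of the same group was shared by both strands only in part. The covariance of the strands over the libraries of a group, divided by their variance, was 19.1% for CON_P, 10.4% for CON_noP, 11.9% for MET_P and 19.04% for MET_noP. It was computed on M values, which are log2 ratios of the methylated to the unmethylated percentage, each with 1 point added. For neighbours at 2 to 10 bp this share was 28.2% to 33.6%. On untransformed percentages the share was 41.6%, 26.4%, 25.9% and 40.6% for the strands, in the same order of groups. For the neighbours it was 59.5%, 51.9%, 48.1% and 60.1% on that scale. The SD over the libraries of a group had a median of 4.99 to 6.38 points on single strands and of 3.87 to 4.88 points after the strands were averaged.

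Single libraries that stood far from the other 3 of their group did so on both strands at a few CpGs. The forward level was at least 30 points from the median of the other 3 libraries in 2257 of 125792 cases, and in 18.6% of these the reverse strand was as far away in the same direction. Among neighbours 2 to 10 bp apart this share was 34.2%. With a distance of 50 points there were 83 cases, and 17 of them, at 15 CpGs, were seen on both strands (20.5%, and 14.3% among neighbours). The CpGs described next were picked for this distance after their values were seen.

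The clearest case lay in PTPRN2, a receptor-type tyrosine phosphatase of secretory granules, at chromosome 4 position 118897637. The MET_P library 19 had 11.7% on the forward strand and 21.4% on the reverse strand. The other 3 MET_P libraries had 88.9% to 98.0% and 92.6% to 100%, and over all 16 libraries the medians were 90.4% and 94.4%. A pair of CpGs in HLCS, the enzyme that attaches biotin to carboxylases, showed the same kind of pattern at positions 149194705 and 149194721 of chromosome 1. At both of them the MET_P library 15 had 28.6% on the forward strand and 28.9% on the reverse strand, and no other MET_P library was below 93.5% on either strand. These CpGs are 16 bp apart and their levels in that library may rest on the same reads. Near position 116907335 of chromosome 6, where no gene is annotated, the direction was opposite. The MET_noP library 25 had 84.6% and 88.9%, against 27.3% to 34.8% and 14.8% to 68.2% in the other 3.

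Differences between the strands that recurred across libraries were tested with limma on the M value of the forward minus that of the reverse cytosine. Of the 7862 CpGs, 428 (5.44%) had a Benjamini-Hochberg adjusted p under 0.05 over all pairs of the table, 211 with the forward and 217 with the reverse strand higher. Over all 9469 pairs the share was 8.23% (4.52% with the forward and 3.71% with the reverse strand higher), being 38.7% in the 3 islands left out and 10.6% on chromosome X, so that the CpGs described here were below this background. Most differences were small: 6548 of the 7862 CpGs (83.3%) had mean levels within 5 points of each other, 226 of the 428 differed by 10 points or more and 32 by 20 or more. The same strand was higher in all 16 libraries at 62 of the 428. At intermediate levels of 20% to 80%, 254 of 2965 CpGs (8.57%) were past the threshold, compared with 59 of 933 below 20% (6.32%) and 115 of 3964 above 80% (2.90%).

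**Figure D2:**
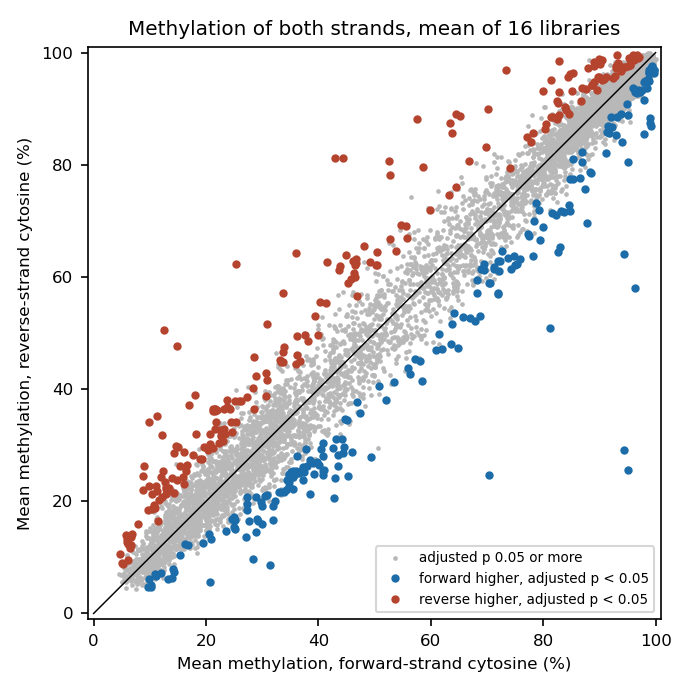
Mean methylation over 16 libraries of the forward-strand cytosine (horizontal axis, %) and of the reverse-strand cytosine (vertical axis, %) at 7862 CpGs, with 1 point per CpG and the line of equal levels. The 211 CpGs with the forward strand higher (blue) and the 217 with the reverse strand higher (red) lie on both sides of the line, and few of them lie far from it.

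Strand differences called in a part of the libraries were mostly seen again in the libraries not used to call them. In the CON libraries alone, 23 of the 7862 CpGs passed the threshold (0.293%, compared with 0.412% of all 9469 pairs). In the MET libraries 21 of the 23 had the same strand higher, where 60.2% of all 7862 CpGs had the same sign in both diets. An unadjusted p under 0.05 with limma in that direction was reached by 19 of the 23. Of all 7862 CpGs, 11.03% had such a p in the MET libraries in either direction. Of 45 called in the MET libraries (0.572% of the CpGs, compared with 1.24% of all pairs), 44 had the same sign in the CON libraries. An unadjusted p under 0.05 in that direction was reached by 35 of the 45, where 11.8% of all 7862 CpGs had such a p in either direction. Split by outcome, 59.5% of all 7862 CpGs had the same sign in the P and noP libraries. Of 47 called in the P libraries (0.598% of the CpGs, compared with 1.09% of all pairs), 39 had the same sign in the noP libraries. Of 36 called in the noP libraries (0.458% of the CpGs, compared with 0.697% of all pairs), 33 had the same sign in the P libraries. An unadjusted p under 0.05 in that direction was reached by 30 of the 47 in the noP libraries, where 11.8% of all 7862 CpGs had such a p in either direction, and by 24 of the 36 in the P libraries, where 11.3% had. Across the 7862 CpGs the mean strand difference in percentage points of the CON libraries correlated with that of the MET libraries with r = 0.528. For the P and noP libraries r was 0.526, and both are descriptions over CpGs that are not independent.

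The CpGs named here passed the threshold and had the same strand higher in all 16 libraries, a condition for naming them. Under this condition the largest differences with the forward strand higher lay in EBD, which encodes an enteric beta-defensin, an antimicrobial peptide of epithelia. At position 7165266 of chromosome 27 the forward level had a lowest value of 90%, a median of 94.7% and a highest of 100%, and the reverse level 12.1%, 22.5% and 40.9%. The strands did not overlap in any of the 16 libraries, and the mean difference was 69.5 points ± 10.8 (SD, n = 16). At position 7165226 of the same gene the means were 94.5% and 29.1%, with a difference of 45.2 to 86.7 points per library. Beta-defensin genes form a family of similar copies, and whether reads of other copies entered these levels was not tested. The third CpG was at position 42511757 of chromosome 29 in FERMT3, kindlin-3 of the integrin adhesions of blood cells. Its forward level ran from 54.2% over a median of 71.4% to 88.9% and its reverse level from 2.33% over 21.2% to 57.1%. The remaining named ones lay outside annotated genes at position 9390 of chromosome 25, with means of 81.2% and 50.9%, and at position 25153 of chromosome 19, with means of 94.3% and 64.2%. A CpG past the threshold between positions 70405991 and 70406002 of chromosome 20 had a larger mean difference of 38.4 points. It did not meet the condition.

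With the reverse strand higher, the largest difference under the same condition was at position 33026179 of chromosome 21. This position lies within a CpG island region that the paper describes on this chromosome, which was not among the 3 islands left out. The forward level there ran from 7.34% over a median of 46.1% to 80%, and the reverse level from 64.2% over 82.7% to 87.7%, so that the forward strand varied the more between libraries. A similar pattern was found at position 112359 of chromosome 20, where the forward level ran from 21.8% to 80.7% and the reverse level stayed between 74.4% and 86.2%. Forward minus reverse there was -20.7 to -3.22 points for MET_P, -60.3 to -48.4 for MET_noP, -55.5 to -26.7 for CON_P and -48.0 to -4.47 for CON_noP. The MET_P values overlapped those of CON_noP and not those of MET_noP or CON_P, which was noticed after the values were seen, and no CpG had an adjusted p under 0.05 with limma for a strand difference that differed between groups. The other 3 named CpGs lay together at positions 59228032, 59228048 and 59228054 of chromosome 18, beyond the end of the island that was left out. Their forward means were 14.8%, 25.3% and 12.6%, and their reverse means 47.7%, 62.3% and 50.5%. Within 50 kb of the islands left out, or of the start of the island on chromosome 21, 20 of 55 CpGs were past the threshold. When these 55 were left out, 408 CpGs remained.

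**Figure D3:**
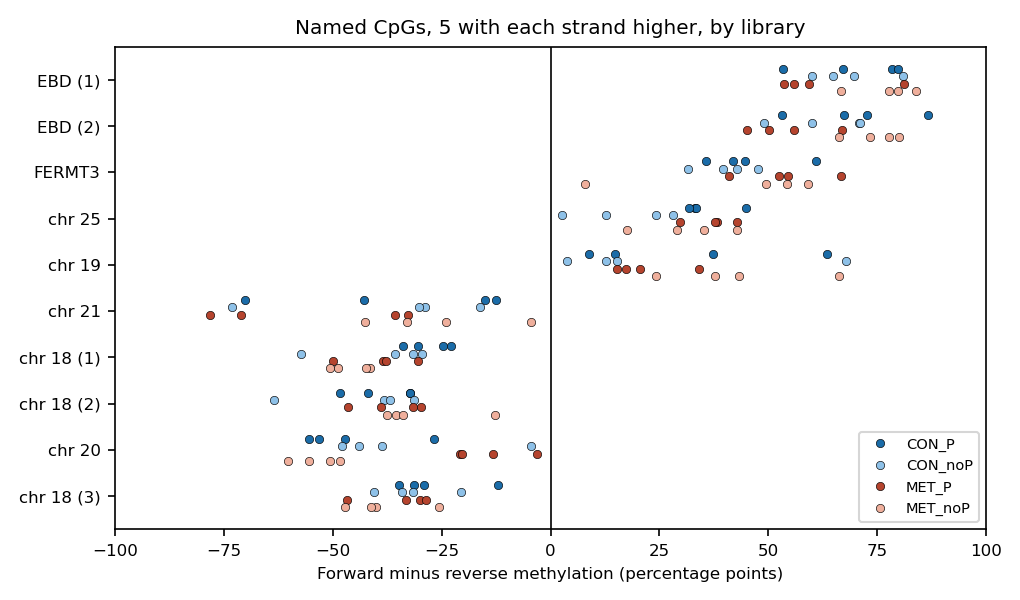
Forward minus reverse methylation (percentage points, horizontal axis) at the 10 named CpGs, with 1 point per library coloured by group. All 16 libraries lie on the same side of 0 at each CpG, which was a condition for naming it. The values run from 53.3 to 83.9 points at the first EBD CpG, and the groups are mixed at most of the CpGs.

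Several of the named CpGs lie near the first base of their chromosome in the assembly. In the first 200 kb of the chromosomes, a limit set after these positions were seen, 33 of 154 CpGs on 11 chromosomes (21.4%) were past the threshold, compared with 395 of the 7708 others (5.12%). Of the 33, 14 had the forward and 19 the reverse strand higher.

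Many CpGs with a strand difference lay near another of their kind, mostly with the same strand higher. Of the 428, 251 (58.6%) lay within 100 bp of another, in 64 clusters, and in 57 of these all had the same strand higher. Among all CpGs measured on both strands, with or without a strand difference, 87.3% had another within 100 bp. Whether those with a strand difference lay closer together than this spacing gives was not tested. The largest cluster held 11 CpGs with the forward strand higher between positions 110702657 and 110702727 of chromosome 3, with no annotated gene, and there the mean forward level of a library exceeded the reverse in 15 of 16 libraries. In ENSBTAG00000008066 on chromosome 5, 10 of 13 CpGs were past the threshold, with the reverse strand higher by 7.74 to 12.7 points on average, in 16 of 16 libraries. The reverse strand was also higher past the threshold at 7 of 20 CpGs of FHDC1, a formin that acts on actin and microtubules. So it was at 7 of 7 of RAP1B, a small GTPase of cell adhesion, and at 6 of 8 of GAL3ST1, which makes sulfatide. The forward strand was higher past the threshold at 9 of 20 CpGs of FSCN2, an actin-bundling fascin. So it was at 8 of 8 of ARID4B, a chromatin protein, and at 7 of 11 of SH2D5. In FSCN2 the means over the called CpGs were 38.9% and 26.1%, in RAP1B 21.5% and 36.3%. The CpGs of a cluster can be read from the same reads and are not independent of each other.

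The groups were not found to differ in the strand difference itself. No CpG had an adjusted p under 0.05 with limma in any of the 4 comparisons or for the interaction of diet and outcome. At an unadjusted p under 0.05 there were 480 CpGs (6.11%) in CON_P against CON_noP, 361 (4.59%) in MET_P against MET_noP, 462 (5.88%) in MET_P against CON_P and 407 (5.18%) in MET_noP against CON_noP. Over all 9469 pairs these shares were 5.58%, 4.64%, 5.75% and 4.83%.

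The group comparisons were then read on both strands, which gives each difference a second measurement in the same libraries. No cytosine of these CpGs reached an adjusted p under 0.05 with limma in any comparison, on either strand. With an offset of 0.1 points in place of 1 in the M value, 29, 32, 34 and 30 cytosines did so in the 4 comparisons and 6 in the interaction. The share over all positions was not computed at this offset, so these counts cannot be set against a background. The comparison of outcome on the control diet, CON_P with CON_noP, had 301 forward and 322 reverse cytosines at an unadjusted p under 0.05, in a table where 3.93% of all positions had such a p. Both strands of the same CpG were under 0.05 in the same direction at 12 CpGs, 8 higher and 4 lower in CON_P, and in opposite directions at 4. Without the CON_P library 30 there were 25 in the same direction. For fits without 1 library, here and in the comparisons below, no share of neighbouring pairs or of all positions was computed. Of the 301 forward cytosines, 3.99% had a reverse partner past the threshold in the same direction. Neighbouring positions both passed in the same direction in 0.44% of pairs (0.343% higher and 0.0966% lower), compared with 0.153% of the CpGs measured on both strands.

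The comparison of outcome under methionine, MET_P with MET_noP, had 445 forward and 450 reverse cytosines under 0.05 (5.12% of all positions). Both strands passed in the same direction at 25 CpGs, 13 higher and 12 lower in MET_P, and in opposite directions at 13. This is 0.318% of the CpGs, beside 0.818% of the neighbouring pairs (0.319% higher and 0.499% lower), and without the MET_noP library 17 there were 83. Of the forward cytosines 5.62% had a partner that passed in the same direction.

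The comparison of diets in cows that became pregnant, MET_P with CON_P, had the most, with 509 forward and 518 reverse cytosines under 0.05 (5.83% of all positions) and 64 CpGs that passed on both strands in the same direction. Of these, 50 were higher and 14 lower in MET_P, and 6 passed in opposite directions. This is 0.814% of the CpGs, beside 1.13% of the neighbouring pairs (0.682% higher and 0.445% lower). The partner passed in the same direction for 12.6% of the forward cytosines. With the median M value of all libraries set equal, 28 of 50 such CpGs were higher in MET_P. Without the CON_P library 30 the count was 182, without the CON_P library 26 it was 30, and without the MET_P libraries 15, 19 or 27 it was 35, 32 or 31. The 1.13% of neighbouring pairs belongs to the fit of all 8 libraries and is no background for these counts. With the 4 sets of consecutive library numbers as a block, added after the data were seen, it was 39 (27 higher and 12 lower).

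In cows that did not become pregnant, MET_noP with CON_noP, 429 forward and 423 reverse cytosines passed (5.13% of all positions), with 28 CpGs on both strands, 21 of them higher in MET_noP, and 9 in opposite directions. This is 0.356% of the CpGs, beside 1.08% of the neighbouring pairs (0.904% higher and 0.174% lower). When the medians were set equal, 8 of 19 were higher in MET_noP. Without the MET_noP library 17 the count was 93, without the MET_noP library 13 it was 16, and without the CON_noP libraries 12 or 24 it was 47 or 46. The interaction of diet and outcome had 429 forward and 451 reverse cytosines under 0.05 (5.25% of all positions) and 20 CpGs that passed on both strands (0.254%, beside 0.84% of the neighbouring pairs), with 58 without the CON_P library 30 and 49 without the MET_noP library 17. Of its forward cytosines 4.66% had a partner that passed in the same direction.

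On M values, group differences on the strands of a CpG were weakly related. Across the 7862 CpGs, r between the M differences on both strands was 0.0771 for CON_P minus CON_noP, 0.167 for MET_P minus MET_noP, 0.230 for MET_P minus CON_P and 0.160 for MET_noP minus CON_noP. For neighbours at 2 to 10 bp it was 0.263, 0.322, 0.365 and 0.334. These are descriptions over CpGs that share libraries. Of the forward cytosines at an unadjusted p under 0.05, 57.1%, 64.5%, 70.9% and 66.4% had a reverse partner that differed in the same direction, in the same order of comparisons. Among the neighbours, a position under 0.05 had a second one that passed in the same direction in 10.2%, 14.8%, 17.96% and 18.5% of cases.

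**Figure D4:**
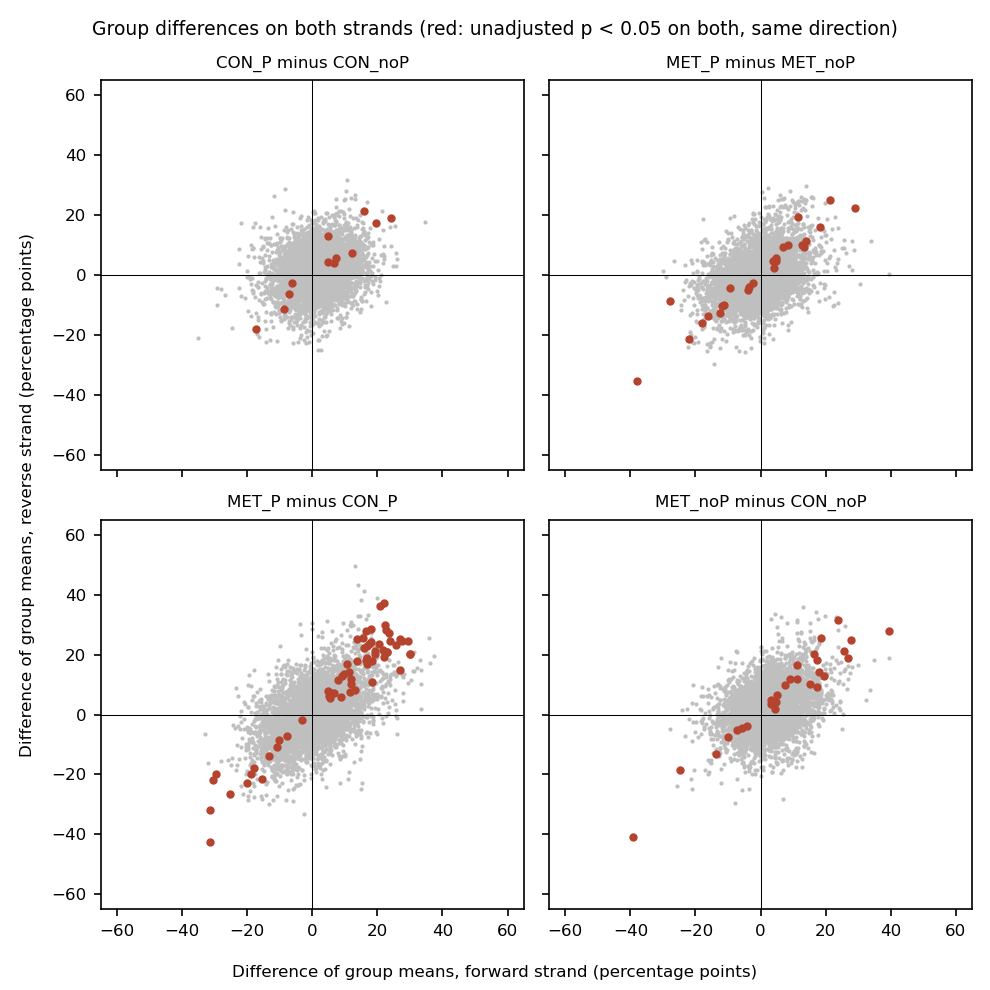
Difference of group means on the forward strand (horizontal axis, percentage points) and on the reverse strand (vertical axis, percentage points) at 7862 CpGs in each of the 4 comparisons, with 1 point per CpG. The CpGs with an unadjusted p under 0.05 on both strands in the same direction (red) number 12, 25, 64 and 28. The correlations in the text are of M differences and were not computed for the percentage points plotted here.

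The cytosines with the smallest p were seldom matched by their partner. At an unadjusted p under 0.001 there were 34, 37, 40 and 40 cytosines in the 4 comparisons, and the partner had an unadjusted p under 0.05 in the same direction at 1, 1, 2 and 2 of them. At 29, 30, 28 and 29 of these cytosines, 1 of the groups was at 100% in all 4 of its libraries, which left that group no spread. Among all 15724 cytosines this was so for 3.34% to 4.31%. The smallest p of MET_P against MET_noP was that of the forward cytosine at position 47529787 of chromosome 29 in CTTN, cortactin, an actin-binding protein of the cell cortex. It was at 100% in all 4 MET_noP libraries and at 76.9% to 90.9% in MET_P (adjusted p = 0.0946, limma). Its reverse partner had means of 93.2% in MET_noP and 93.7% in MET_P. In IKZF4, an Ikaros-family transcription factor, the reverse cytosine of the CpG at position 57297151 of chromosome 5 was at 100% in all CON_P libraries and at 89.0% ± 5.08 (SD, n = 4) in CON_noP, while the forward one had 97.4% ± 2.74 and 98.3% ± 1.26. In GRAMD4 the forward cytosine at position 116871295 of chromosome 5 had 86.5% ± 5.17 for MET_P and 100% in every CON_P library, and its partner 93.6% ± 2.84 and 95.0% ± 3.37.

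Group differences found on both strands, with no overlap of the 4 and 4 libraries on either, were few. There was 1 such CpG in CON_P against CON_noP, 4 in MET_P against MET_noP, 15 in MET_P against CON_P and 5 in MET_noP against CON_noP. On single positions of the whole table the groups did not overlap at 1.99%, 2.90%, 3.09% and 2.75%, and on both of 2 neighbours in 0.118%, 0.303%, 0.413% and 0.36% of pairs, compared with 0.0127%, 0.0509%, 0.191% and 0.0636% of the CpGs measured on both strands. An unadjusted p under 0.05 on both strands as well was reached by 0, 1, 10 and 3 of them. None of those named next passed the adjustment over all positions, and the smallest p of an exact permutation of 4 against 4 libraries, which groups without overlap reach, is 0.0286.

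A CpG of SLC4A3, an anion exchanger that carries chloride and bicarbonate, had the largest difference on both strands between outcomes under methionine. It lies at position 107556564 of chromosome 2. In MET_noP the forward strand had 71.8%, 73.3%, 90.5% and 80% and the reverse strand 83.3%, 75.0%, 77.8% and 95.2%. In MET_P they had 21.1%, 46.3%, 47.4% and 48.6%, and 52.4%, 37.9%, 51.9% and 48.0%. Every MET_P library was below every MET_noP library on both strands. The differences were -38.1 and -35.3 points (adjusted p = 0.656 on both strands, limma), and the mean of both strands had an M difference of -2.41 ± 0.428 (SE) with an adjusted p of 0.284 (limma). The same 4 MET_P libraries were also below all 4 CON_P libraries, which had 56.2% to 87.5% on the forward and 58.3% to 100% on the reverse strand. That call was lost without the CON_P library 30 or the MET_P libraries 19, 27 or 31. In CON_noP the strands ran from 31.4% to 80% and from 44.1% to 82.6%, overlapping all other groups. The interaction of diet and outcome had an adjusted p of 0.938 on both strands (limma).

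A pair of CpGs in NEURL1B, an E3 ubiquitin ligase of Notch ligands, was higher in MET_P than in CON_P, at positions 4445310 and 4445316 of chromosome 20. At the second one MET_P had 52.6%, 56.7%, 56.2% and 51.3% on the forward strand and 63.2%, 70%, 70.8% and 73.3% on the reverse strand. CON_P had 29.6%, 25.6%, 6.25% and 47.6%, and 35.1%, 35.4%, 50.0% and 56.7%. All MET_P libraries lay above all CON_P libraries on each strand, by 26.9 and 25.03 points on average (adjusted p = 0.827 on both strands, limma). The noP groups overlapped both, with reverse levels of 28.6% to 72.4% in CON_noP and 24.2% to 71.9% in MET_noP. NEURL1B held 12 CpGs measured on both strands, and 4 of them were higher in MET_P at an unadjusted p under 0.05 on both. The call of the first one was lost without any 1 of 6 of the 8 libraries, namely 14 and 26 of CON_P and 15, 19, 27 and 31 of MET_P.

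In RFX1, a transcription factor of the winged-helix RFX family, the CpG at position 11712095 of chromosome 7 was higher in MET_P as well. MET_P had 53.6%, 45.7%, 47.4% and 32.1% on the forward and 64.7%, 47.4%, 48.8% and 58.1% on the reverse strand. CON_P had 26%, 18.8%, 18.8% and 24.2%, and 17.9%, 38.9%, 5.88% and 44.0%. The groups did not overlap, and the differences were 22.8 and 28.1 points (adjusted p = 0.827 on both strands, limma). The call was lost without the CON_P library 14 or the MET_P libraries 15 or 31.

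Lower in MET_P than in CON_P were, beside SLC4A3, a CpG at position 57973816 of chromosome 22 and one at position 117660817 of chromosome 4, both without an annotated gene. The first had 16.7%, 13.6%, 13.3% and 12.2% on the forward and 18.2%, 22.7%, 27.3% and 24.1% on the reverse strand in MET_P. In CON_P it had 55.0%, 50.0%, 46.2% and 27.3%, and 61.1%, 38.1%, 50.0% and 30%, so that the groups were apart by 30.6 and 21.7 points on average. The second had means of 31.5% and 49.7% in MET_P and of 49.5% and 67.5% in CON_P. It belongs to a cluster of 9 CpGs with the reverse strand higher, and both strands were lower in MET_P, with differences of -18.02 and -17.8 points (adjusted p = 0.827 on both strands, limma). Its call was lost without any 1 of 7 of the 8 libraries, the exception being the CON_P library 18.

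In MET_noP against CON_noP the largest difference without overlap was in EIPR1, a protein of endosomal tethering complexes, at position 111120050 of chromosome 8. MET_noP had 100%, 100%, 97.4% and 87.2% on the forward and 100%, 100%, 100% and 90.3% on the reverse strand. CON_noP had 79.4%, 57.1%, 20% and 70.6%, and 73.7%, 68.0%, 47.8% and 89.3%, lower by 39.4 and 27.9 points (adjusted p = 0.612 and 0.513, limma). In the P groups single libraries were low on both strands, CON_P library 26 with 35.7% and 46.2% and MET_P library 19 with 36.8% and 26.1%, where the other 6 had 95.0% or more. In RASIP1, a Ras-interacting protein of blood vessel formation, the CpG at position 55364832 of chromosome 18 had means of 45.9% and 51.7% in MET_noP and of 22.1% and 20.03% in CON_noP. Its call was lost without the CON_noP library 28 or the MET_noP library 25. The third, at position 15306215 of chromosome 22 without a gene, differed by 3.23 and 4.86 points at levels of 92.0% or more, and its call was lost without any 1 of 6 of the 8 libraries, namely 12, 16, 24 and 28 of CON_noP and 17 and 29 of MET_noP.

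**Figure D5:**
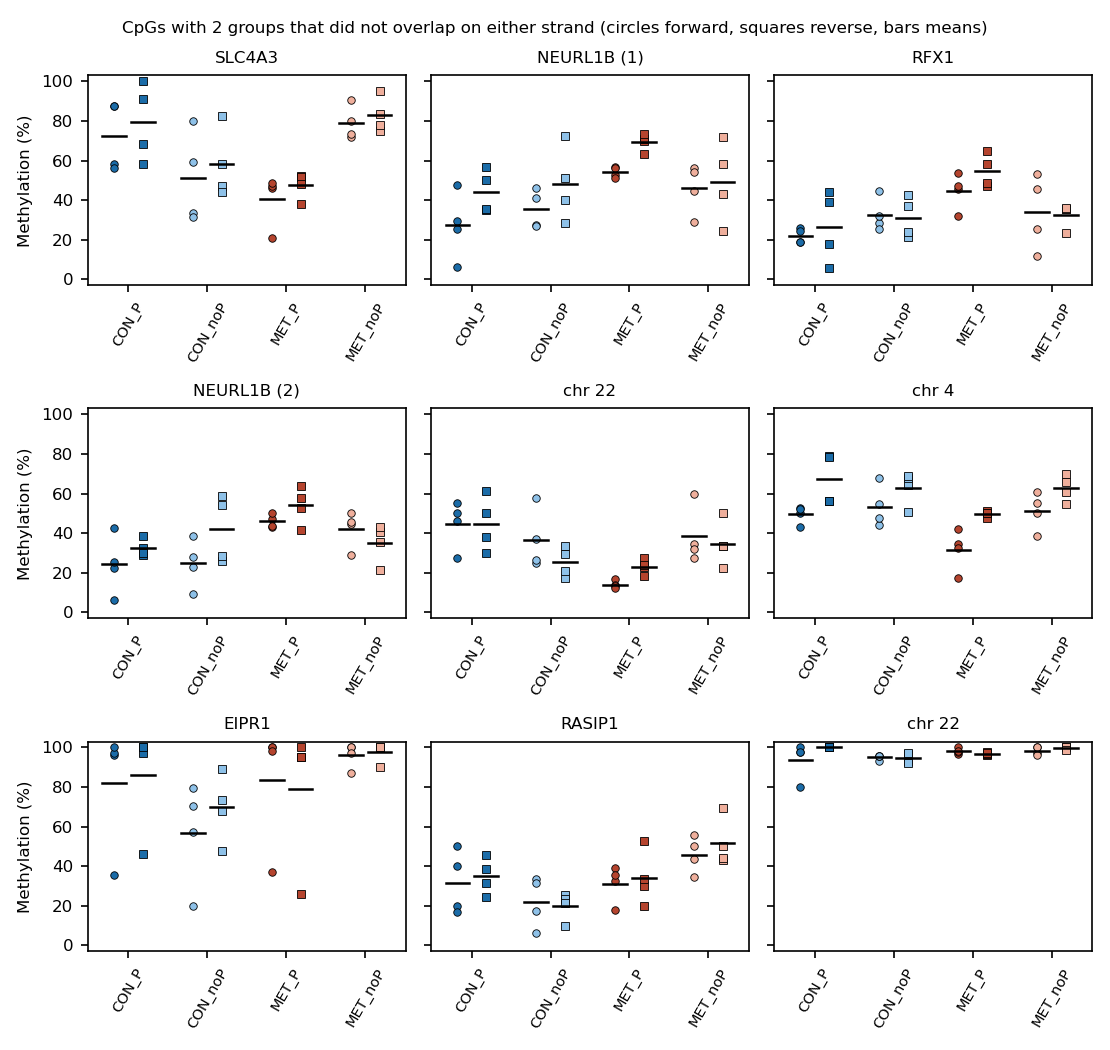
Methylation (%, vertical axis) of the 9 named CpGs in the 4 groups, with circles for the forward and squares for the reverse strand, 1 point per library and strand, and bars for the means of 4 libraries. At SLC4A3 all MET_P points lie below all MET_noP and CON_P points, and at EIPR1 1 library of CON_P and 1 of MET_P lie low on both strands.

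Other CpGs passed on both strands with overlapping groups, and those given here were picked by size after their values were seen. In MET_noP against CON_noP, NOTCH4, a Notch receptor of endothelium, was lower at position 27175252 of chromosome 23, by 39.2 and 40.9 points. CON_noP had 93.3% or more in all libraries and strands. MET_noP had 40.0%, 92.6%, 76.5% and 25.8% on the forward and 36.8%, 94.1%, 66.7% and 32.1% on the reverse strand, so that the same libraries were low on both. SOX9, a transcription factor of gland progenitors, was higher in MET_noP by 25.8 and 21.1 points. In MET_P against CON_P, 4 CpGs of ATP8B1, a phospholipid flippase, were higher in MET_P by 25.1 points on average. Also higher there were 3 each in FAM131A, TTC7B and RAP1B and 2 in FHDC1, and lower were 2 in PAX7. CRTAC1 was lower by 31.5 and 42.5 points. Of the 64 CpGs of this comparison 30 lay in 11 clusters of at most 100 bp spacing, each in 1 direction, while the 12 of CON_P against CON_noP lay at 12 separate places. In CON_P against CON_noP the largest were INPP5A, an inositol phosphatase, higher by 24.2 and 18.8 points, and a keratin gene (ENSBTAG00000027974), lower by 17.2 and 18.2 points.

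Of the 64 CpGs of MET_P against CON_P, 8 (12.5%) also differed between the strands over all libraries, in ATP8B1, FAM131A, FHDC1, RANBP1 and RAP1B and outside genes, which is 1.87% of the 428 CpGs with a strand difference. That the strands had different levels and moved in the same direction here follows from how these CpGs were chosen. Among all CpGs measured on both strands, 5.44% had a strand difference, and whether 12.5% departs from this share was not tested. In the other comparisons a strand difference was also found at 1 of 12, 2 of 25 and 1 of 28.

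The genes with the most CpGs measured on both strands were MAD1L1, of the mitotic spindle checkpoint, and PTPRN2 with 33 each, GMDS, of GDP-fucose synthesis, and IGF1R, the receptor of insulin-like growth factor 1, with 24 each, and SDK1, a cell adhesion protein, with 23. IGF1R had 97.4% ± 0.854 for CON_P, 97.2% ± 0.840 for CON_noP, 96.8% ± 1.05 for MET_P and 97.9% ± 0.421 for MET_noP (SD, n = 4). Its strands had means of 97.3% each, and none of its CpGs passed a test. MAD1L1 lay at 84.0% to 86.0% in the 4 groups, and 1 of its 33 CpGs passed on both strands in MET_P against MET_noP. The mean of SDK1 was 85.1% ± 3.65 for CON_P, 85.2% ± 1.85 for CON_noP, 83.05% ± 2.83 for MET_P and 87.1% ± 1.46 for MET_noP. That of PTPRN2 was 81.0% ± 2.60, 79.97% ± 2.84, 77.7% ± 1.37 and 79.9% ± 2.60 in the same order. Libraries of the groups overlapped at both genes.

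Among imprinted genes, which are methylated on the allele of one parent at their control regions, 6 of 17 genes held 59 CpGs, and none of these differed between the strands. The 21 CpGs of GNAS lay between 30.3% and 50.0% with strand means of 40.5% and 39.7%, and its group means were 37.4% ± 7.35 for CON_P, 33.4% ± 8.44 for CON_noP, 44.4% ± 7.32 for MET_P and 45.2% ± 6.90 for MET_noP, which overlap. The 22 CpGs of IGF2R had a mean of 64.7%, ranging from 31.5% to 98.6%. The 12 of KCNQ1 had 96.5%, and 1 of them was lower in MET_noP than in CON_noP at an unadjusted p under 0.05 on both strands, the only CpG of the 6 gene lists to pass on both in any of the 4 comparisons.

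Of 13 genes for the maintenance and turnover of methylation, DNMT3A held 5 CpGs and UHRF1 held 3. The strand means were 41.0% and 39.9% in DNMT3A and 98.0% and 97.2% in UHRF1, and no CpG of either passed a test between strands or on both strands between groups. None of the 16 genes of the methionine and folate cycle held a CpG measured on both strands. Of 16 endometrial receptivity genes HOXA9 and WNT7A held 1 each, with means of 10.1% and 25.6%. Epithelial markers were represented by ELF3 with 31.1% and KRT7 with 10.1%, and leukocyte markers by ITGB2 with 6 CpGs at 27.4% and CD8A with 1 at 12.1%, which is too few for a check of the cell types in the brush. In ITGB2, an integrin chain of leukocytes, the group means were 32.3% ± 9.17, 26.5% ± 2.84, 21.8% ± 3.80 and 28.8% ± 6.12 for CON_P, CON_noP, MET_P and MET_noP, and 1 of the 6 CpGs differed between the strands. Its part in the other results was not tested.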

How the data were processed

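Reads of the RRBS libraries were trimmed by the authors (Trim Galore) and mapped to the ARS-UCD1.2 assembly by Bismark. Runs of a library were merged (SAMtools), and cytosine positions with a minimum of reads were quantified in SeqMonk. The deposited values are the percent methylation of each position and library, without read counts, and with no normalization between libraries. Columns were assigned by the group name above them, and 0 columns of other samples were present.

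Here, adjacent positions were paired, percentages were transformed to M values with an offset of 1 percentage point, and positions were tested with limma 3.58.1 (R 4.3.3, no trend, Benjamini-Hochberg over 199395 positions) on the 8 libraries of a comparison. The interaction used all 16. Strand differences were tested over 9469 pairs, with group means weighted equally. Single values were compared by exact permutation. The limma tests were also run on simulated M values, drawn as independent and normal for each position. Such values have no ceiling at full methylation and no correlation between strands or neighbours, so they cannot show how the tests behave under these. Named CpGs were the 5 largest strand differences per direction with the same sign in all libraries, and per comparison up to 3 CpGs per direction that passed on both strands without overlap. The CpGs, lists and rules were chosen with earlier results of these data known. The sources used here do not say whether each library comes from separate cows, so p-values measure the spread between these libraries.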

Additional observations from a re-analysis of the deposited data

Results flagged for a closer look

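Of 68 groups of 4 libraries examined for 1 library far from the other 3, 4 were beyond Dixon's critical value of 0.829, where chance gives about 1 in 20. In MET_noP the lowest library had a mean methylation of 64.9% at the CpGs measured on both strands. At the EIPR1 CpG of MET_noP the lowest library had 88.8% as the mean of both strands. The strand difference at position 9390 of chromosome 25 was highest in CON_P, at 45.0 points in 1 library. At position 59228048 of chromosome 18 it was -12.8 points in 1 MET_noP library, the others being further from 0.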

How the results depend on the processing

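No paired analysis was possible because the columns carry library numbers that could not be matched to the replicate numbers of the labels. A fit blocked on something else, the sets of libraries whose numbers follow each other (12-15, 16-19, 24-27, 28-31), was added after the data were seen and gave 39 CpGs on both strands in MET_P against CON_P in place of 64. Pairs read as CG in a genome were not run, since no genome of this build was used here. The cause of the following changes was not tested. With an offset of 0.1 points, CpGs passing on both strands numbered 10 in MET_P against MET_noP, 34 in MET_P against CON_P and 15 in MET_noP against CON_noP, and 29, 32, 34, 30 and 6 cytosines reached an adjusted p under 0.05 with limma in the 4 comparisons and the interaction. No share over all positions or neighbouring pairs was computed at this offset. Levels of 10% to 90% gave 15 and all libraries in 1 model gave 16 CpGs in MET_P against MET_noP. Moderation with trend gave 45 in MET_noP against CON_noP and 31 for the interaction. Of the 428 strand differences 226 were of 10 points or more. At levels of 10% to 90% the difference in strand closeness between MET_noP and CON_noP turned to 0.113 points, and that of partners minus neighbours to -0.419. With neighbours 11 to 50 bp apart it was -1.14, and the median level of MET_P minus MET_noP turned to 0.295 points. The variance shared by the strands was 41.6%, 26.4%, 25.9% and 40.6% on percentages and 36.4%, 22.4%, 23.2% and 36.4% at levels of 10% to 90%. Leaving out single libraries gave 10 to 25, 20 to 83, 30 to 182 and 16 to 93 CpGs on both strands in the 4 comparisons, 18 to 58 for the interaction with 0 to 2 cytosines past the adjusted threshold, and 311 to 402 strand differences. Shares over all positions, neighbouring pairs or all pairs were not computed for these fits. Strand closeness of CON_P minus CON_noP ran from -0.119 to 0.589 points, mean methylation of MET_P minus MET_noP from -0.749 to 0.107, and the shared variance of CON_P from 15.5% to 23.8% and that of MET_noP from 13.3% to 23.8%. Every named strand difference kept its direction and its adjusted p under 0.05 in the alternatives run. Depth was not known for single positions, so a position read few times weighs as much as one read often.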
